A study of Mus musculus with 18 samples.

Results

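The stretch chr9:3000031-3038257 (NCBIM37), 38227 bases of tandem satellite repeats beside the centromere of mouse chromosome 9, was followed cytosine by cytosine in whole-genome bisulfite sequencing of embryonic stem cells (ESCs). Cytosines were chosen for depth alone, as the CpG cytosines of the stretch with at least 20 methylation calls in every library. Of 1873 positions of the stretch listed in at least 1 library, 540 met this, and they carried 95.6% of the calls in the stretch. The reference holds 1550 CpG cytosines there, so some of the listed positions are not CpG cytosines of the reference. In the whole genome outside the mitochondrion 727 cytosines met the same minimum, so this stretch held most of the nuclear positions at which single cytosines could be read. The study's 18 libraries were 9 of control ESCs, labelled wild type, and 9 of Dnmt1 KO ESCs, in which the maintenance DNA methyltransferase gene was deleted. Each genotype was sampled in 2 replicates on days 1, 3, 9 and 11 and in 1 library on day 6. Every library was labelled as ESC of background strain E14. The methods instead named floxed Dnmt1 cells of a C57BL/6 background, cultured in serum and LIF, in which 4-hydroxytamoxifen induced the Cre recombinase. Which line the control libraries came from is therefore unclear, and a difference between lines cannot be told apart from the deletion. Each value is an average over all cells of a culture.

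Major satellite is the main repeat of the pericentric heterochromatin of mouse chromosomes and consists of long tandem arrays of an AT-rich unit with few CpGs. In most mouse tissues these CpGs are heavily methylated. DNMT1 copies methylation to the new strand after replication and acts on CpGs that carry it on the old strand only, whereas DNMT3A and DNMT3B place methyl groups on unmethylated CpGs and prefer some flanking bases over others. Bisulfite converts unmethylated cytosine to a base read as T, so that each strand of a CpG is measured on its own reads.

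The unit of the stretch was read from the reference sequence, because the CpGs within it organize all values that follow. The stretch matched itself best at a distance of 234 bases, where 71.3% of bases were identical, and 34.9% of its bases were G or C. This period and composition are those known for major satellite, and no repeat annotation was used. The unit shown here, on the plus strand at chr9:3014071-3014304, is the window of 234 bases that differed least from the other windows, and its 4 CpGs in capitals lie at unit positions 98, 156, 198 and 214. The copy below it, at chr9:3000244-3000477, holds the most measured cytosines, 16 at 8 CpGs.
unit: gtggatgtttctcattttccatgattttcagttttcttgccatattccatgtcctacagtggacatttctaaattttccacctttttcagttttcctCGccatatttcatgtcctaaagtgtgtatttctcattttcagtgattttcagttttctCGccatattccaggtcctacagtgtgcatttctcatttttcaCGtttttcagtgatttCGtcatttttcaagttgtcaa
copy: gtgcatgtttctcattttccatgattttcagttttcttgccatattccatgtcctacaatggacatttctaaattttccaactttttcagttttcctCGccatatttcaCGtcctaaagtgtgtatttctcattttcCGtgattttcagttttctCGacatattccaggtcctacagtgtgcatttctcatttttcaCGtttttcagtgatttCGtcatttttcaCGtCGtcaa

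Copies of the unit held between 2 and 8 CpGs, with a median of 5. The 4 CpGs of the shown unit accounted for 336 of the 540 cytosines. The other 204 lay at CpGs that differ from it by a base, written with the base of the unit first and its position counted from 1 at the 5′ end. T110C gave 68 of these cytosines, A138C 88, T229C 36, T38C 4, T50C 4 and A226C 2, and C79G and A138G gave 1 each. The cytosines comprised 343 on the plus and 197 on the minus strand and belonged to 354 CpGs, of which 186 had both strands measured. In the gene models of the build 235 cytosines lay in exons, 300 in introns and 5 outside genes. Nearly all, 535, fell within Gm16869 (ENSMUSG00000087580.2), a lincRNA on the minus strand at chr9:3000282-3038313, and many also lay in 12 predicted protein-coding genes of the plus strand, such as Gm10718 (ENSMUSG00000074562.2).

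Reads within the Dnmt1 gene were searched for the deleted part. A run of 73 cytosines there, chr9:20743814-20745971, was picked because it lacked calls in the 7 Dnmt1 KO libraries after day 1. Among such runs it had the most calls in control. The absence of calls after day 1 thus follows from that choice, which left only the day 1 count free. At day 1 the run held 4 calls in the 2 Dnmt1 KO libraries together. It held 175 over the 9 control libraries, with 6 to 29 in each. Libraries held 7190722 to 11158414 calls in all, of which 131845 to 218818 lay in the stretch. The median cytosine of the set had between 93 and 171 calls, depending on the library, and a single cytosine between 20 and 4097. In the mitochondrial genome, used as a background for failed conversion, 0.228% to 0.467% of CpG calls were methylated. The assembled stretch stands for far more satellite DNA than it contains, and each of its cytosines can pool reads of many genomic copies. Just inside the depth minimum a cytosine with 20 calls in its lowest library was methylated at 85.1% in control and 45.9% in Dnmt1 KO days 6 to 11. Just outside it a cytosine with 19 calls had 89.7% and 52.4%. These are single cytosines at different places in the unit. As groups, cytosines with 15 to 19 calls in their lowest library had 78.7% and 34.6%, and those with 20 to 24 calls had 79.4% and 35.1%.

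Methylation of the stretch was high in control ESCs and fell in Dnmt1 KO mainly between days 1 and 3. It fell by less at each later step and stayed well above that of other autosomal sequence. Summed over the 540 cytosines, the control libraries lay at 81.7% and 82.9% on day 1, 81.9% and 82.6% on day 3, 84.4% on day 6, 82.2% and 83.7% on day 9, and 82.0% and 82.1% on day 11. The Dnmt1 KO libraries lay at 77.9% and 78.1% on day 1, 45.1% and 46.5% on day 3, 40.04% on day 6, 38.4% and 38.5% on day 9, and 37.8% and 38.0% on day 11. At no day did the genotypes overlap. Averaged over the days, Dnmt1 KO libraries differed from control by -34.8 percentage points, with p = 0.00077 in a two-sided exact permutation test of genotype labels within days, the smallest p that its 2592 arrangements can give (adjusted p = 0.00103 over the 4 tests of library values). On days 1, 3, 6, 9 and 11 the differences were -4.35, -36.5, -44.4, -44.5 and -44.2 points. An exact permutation test of a pair of libraries against a pair cannot go below p = 0.33, so single days were tested at the level of cytosines only.

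The rest of the autosomes lost a larger share of its methylation than the stretch. This rest includes other deep repeats. Among them, 113 deep cytosines of chromosome 2 had 7767728 calls over all libraries, against 2913052 for the 540 of the stretch. Outside the stretch the Dnmt1 KO libraries had 69.7% and 70.0% at day 1, 33.1% and 34.3% at day 3, 23.9% at day 6, 24.3% and 25.2% at day 9, and 23.9% and 24.5% at day 11, against 71.1% to 78.9% in the 9 control libraries. At day 11 the stretch kept 46.2% and the rest 34.0% of the control level, and at day 3 these shares were 55.7% and 44.7%. The gap between stretch and rest was 5.76 and 7.11 points in the control libraries of day 1, 6.49 and 7.19 at day 3, 5.54 at day 6, 6.22 and 6.42 at day 9, and 10.8 and 10.96 at day 11. In Dnmt1 KO it was 8.10 and 8.15 points at day 1, 12.0 and 12.2 at day 3, 16.1 at day 6, 13.2 and 14.2 at day 9, and 13.5 and 13.9 at day 11. The Dnmt1 KO libraries were above the control libraries of their day throughout, by 5.53 points over the days (p = 0.00077 in the two-sided exact permutation test, the smallest possible; adjusted p = 0.00103). The difference between genotypes shrank from 10.6 points at day 6 to 2.79 at day 11, where the rest of the control autosomes was at its lowest, 71.2%, while the stretch in control was at 82.1%. Against the other 187 nuclear cytosines of the same depth, many of them in similar repeats, the difference was 2.72 points, over unlike mixes of unit positions and strands. At each of the 7 unit positions with the most cytosines, similar inverted repeats on chromosome 2 had a higher mean than the stretch in Dnmt1 KO days 6 to 11, on either strand. The ranges over libraries overlapped at most of these strands. At position 198 the repeats had 28.2% and 20.7% on the plus and minus strand of the unit, against 25.3% and 17.2% in the stretch. On that minus strand control was also higher, 83.5% against 80.1%, and 2 of the 4 cytosines had TACGTG where the stretch had AACGTG.

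**Figure D1:**
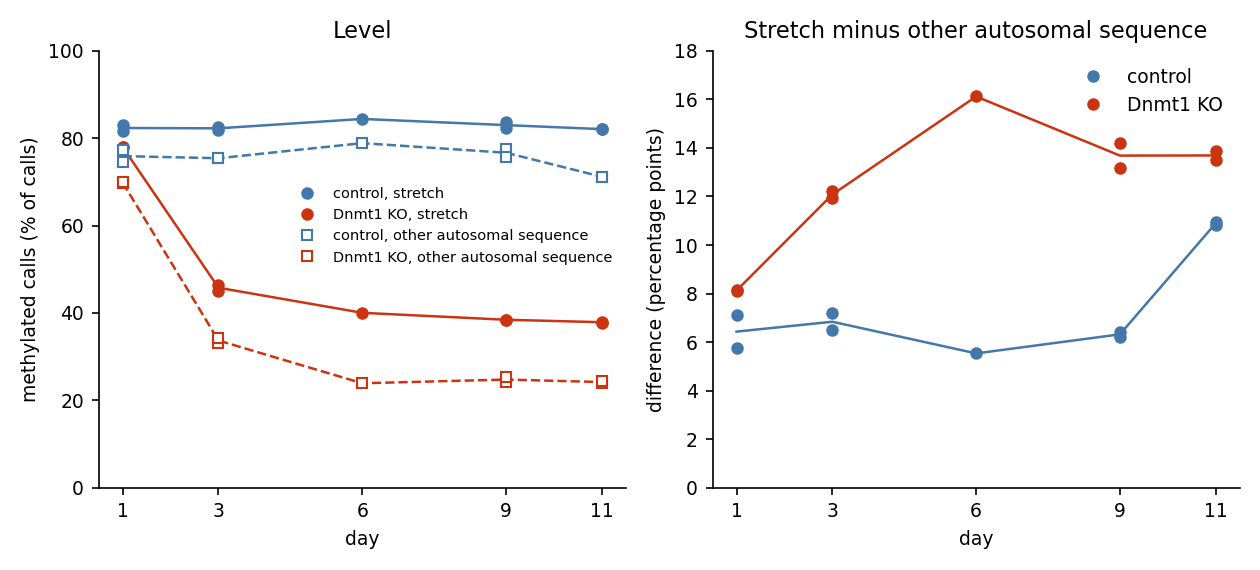
Left, methylated calls as percent of calls by day for each library, in the stretch (filled circles) and in other autosomal sequence (open squares), for control (blue) and Dnmt1 KO (red), with lines through the means. The stretch fell from 77.9% and 78.1% at day 1 to 37.8% and 38.0% at day 11 in Dnmt1 KO. Right, the stretch minus other autosomal sequence in percentage points for the same libraries, where the Dnmt1 KO points lie above the control points of their day.

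The share of nuclear calls that fell in the stretch ranged from 1.38% to 2.50% of a library and did not separate the genotypes. It was 0.108 percentage points higher in Dnmt1 KO over the days (p = 0.33 in the exact permutation test). Dnmt1 KO day 9 replicate 2, the library with the fewest calls, had the highest share, and without any single library the difference lay between 0.0195 and 0.196 points. At day 9 the 2 Dnmt1 KO libraries had shares of 1.62% and 2.50%, and their levels over the 540 cytosines were 38.5% and 38.4%.

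Nearly every cytosine of the stretch lost at least 10 points of methylation, and those that did not were at a low level in control. The methylated share of calls was fitted with a quasi-binomial model at all 727 deep nuclear cytosines. Calls needed an adjusted p (Benjamini-Hochberg) below 0.05 together with a change of 10 points or more. Over the days 533 of 540 were called, all lower in Dnmt1 KO, with a median difference of -35.0 points. Of all cytosines tested, 96% were called in this comparison, a share that includes the stretch itself. Of the other 187 deep cytosines 165 were called, all lower, with a median difference of -36.9 points. The 7 cytosines not called were under 25% methylated in control. All but chr9:3000469, at 20.4%, were under 10% there and could not lose 10 points. The 7 comprised the 4 cytosines of T38C, the 2 of A226C and the 1 of C79G. The last 3 were lower in Dnmt1 KO at an adjusted p under 0.05 in the quasi-binomial model and missed the minimum of 10 points alone, so that 536 cytosines were called without it.

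Cytosines made by T38C were almost unmethylated in each genotype. Summed over the 4, the level was 1.22% ± 0.305 (SD, n = 9 control libraries) and 0.665% ± 0.199 (SD, n = 5 Dnmt1 KO libraries of days 6 to 11), in 13608 calls. The deepest of them, chr9:3018085 in an exon of Gm10719, had between 309 and 440 calls per library and stayed between 0.265% and 1.83%. At chr9:3024321, the C79G cytosine, control libraries ranged from 3.12% to 17.9%, and 0% to 6.90% was found in Dnmt1 KO on days 6 to 11. The A226C cytosines had 20.4% ± 2.14 on the plus and 9.69% ± 1.51 on the minus strand in control (SD, n = 9), and 11.4% ± 1.39 and 5.06% ± 1.71 in Dnmt1 KO days 6 to 11 (SD, n = 5), or 55.8% and 52.2% of the control level. By contrast, control levels were 76.9% to 87.7% at the cytosines made by T50C, T110C, A138C and T229C. A T in the genome and an unmethylated C give the same base after bisulfite, so a plus-strand read from a copy with T counts as unmethylated. Among the low groups a T of the unit is replaced at T38C alone. How much reads of copies without the CpG contribute to the low levels at T38C, C79G and A226C was not tested.

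By day the loss was abrupt. At day 1 the model called 19 cytosines (3.52% of 540), against 3.16% of all tested and 4 of the 187 outside the stretch, each lower in Dnmt1 KO by 10.2 to 19.8 points. They were 7 of the 343 on the plus and 12 of the 197 on the minus strand, and 8 of the 98 at unit position 198. The count was 10 without Dnmt1 KO day 1 replicate 1, and 99 without the minimum of 10 points. The deepest, chr9:3024208 on the minus strand at that position, differed by -11.4 ± 1.98 points (SE, adjusted p = 0.000162 in the quasi-binomial model). On days 3, 6, 9 and 11 there were 526, 523, 532 and 533 calls, where 95.6%, 95%, 96.3% and 96.1% of all tested cytosines were called.

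Within Dnmt1 KO the steps between days were of very different size. From day 1 to day 3, 525 cytosines fell (95% of all tested were called), with a median change of -31.4 points. From day 3 to day 6, 39 fell further, or 7.22% of the set, against 9.63% of all tested and 31 of the 187 outside the stretch. The median change was -6.20 points over all 540 and -5.63 points over the 187. Unit position 198 gave 14 of the 39 and position 229 gave 9, out of 98 and 36 cytosines at these positions. The count fell to 13 without Dnmt1 KO day 3 replicate 2 and to 11 with limma on log2 ratios, and rose to 91 without the minimum of 10 points. Day 6 has a single Dnmt1 KO library, so the steps into and out of that day rest on the assumption that it varies like the replicated groups. From day 6 to 9 and from day 9 to 11 the quasi-binomial model called 0 cytosines (0% of all tested in either step), with 31 and 21 at an unadjusted p under 0.05. Limma on log2 ratios also called 0 of the stretch, with 26 and 22 at an unadjusted p under 0.05. The medians of these later steps were -1.37 and -0.882 points. In control cells the quasi-binomial model called 0 cytosines from day 1 to 3 or from day 9 to 11 (0% of all tested), with 12 and 24 at an unadjusted p under 0.05. Limma on log2 ratios also called 0 of the stretch, with 29 and 39 at that threshold. In the quasi-binomial model the step from day 9 to 11 without control day 9 replicate 2 gave 3.

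The level of a cytosine in the later Dnmt1 KO libraries varied with its place in the unit and with its strand. In the pooled control libraries the cytosines had a median of 82.7%, with quartiles of 80.4% and 85.4% and a range from 0.988% to 90.7%. In the pooled Dnmt1 KO libraries of days 6 to 11 the median was 38.1%, the quartiles 30.8% and 47.7%, and the highest 59.9%. Over all 540 the SD was 9.61 points in control and 11.19 in Dnmt1 KO, where counting error alone gave about 1.36 and 2.28, and unit position and strand together accounted for 84.5% and 93.0% of the variance. Without the 7 cytosines under 25% in control, the SD was 4.26 points in control and 10.5 in Dnmt1 KO. Over these 533 the share of the variance that went with unit position and strand was 20.2% in control and 92.0% in Dnmt1 KO, so the contrast between genotypes rests on leaving out the 7. These shares are descriptions over cytosines, which share libraries and reads and are not replicates.

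**Figure D2:**
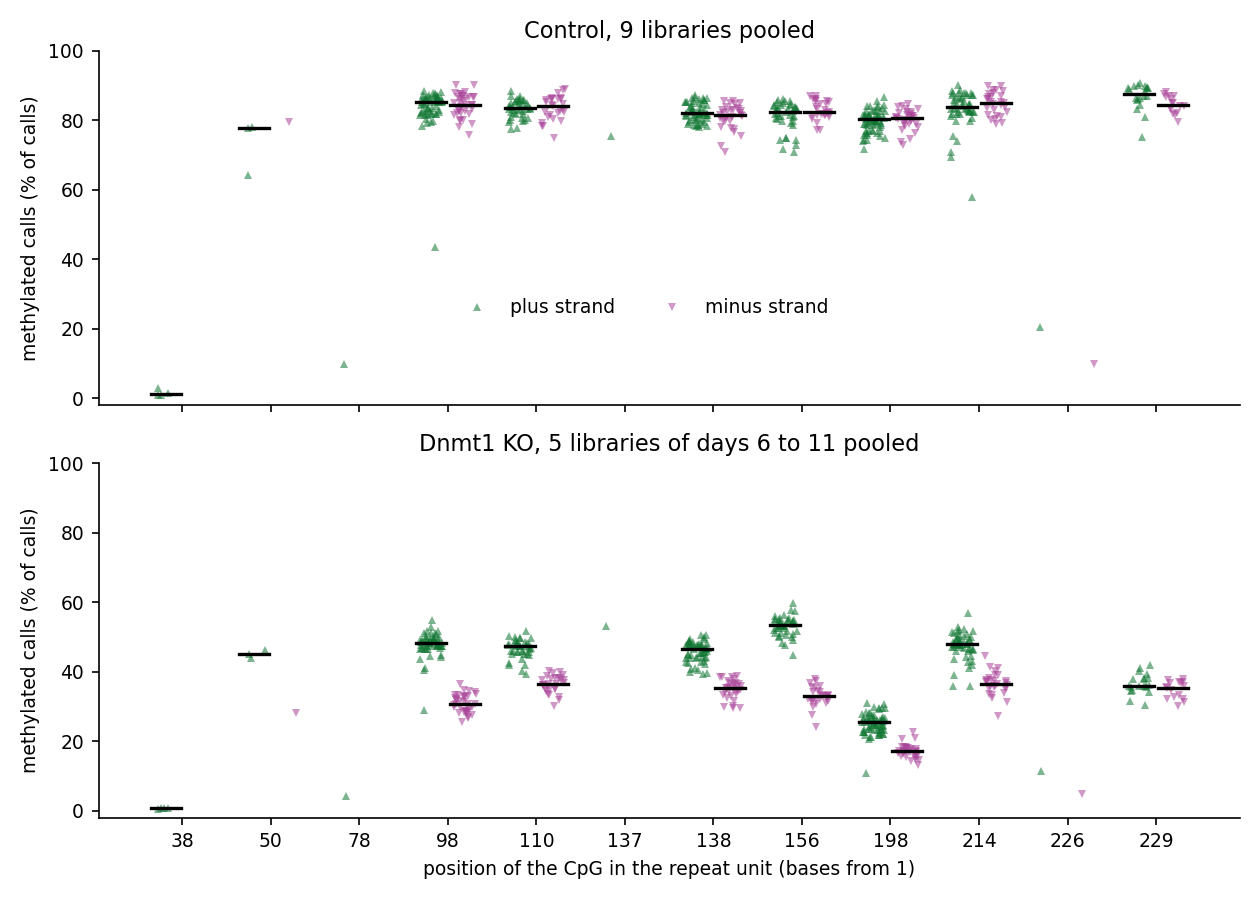
Methylated calls as percent of calls for each of the 540 cytosines, by the position of its CpG in the repeat unit (bases from 1), in the 9 control libraries pooled (top) and the 5 Dnmt1 KO libraries of days 6 to 11 pooled (bottom). Green triangles pointing up are plus-strand and purple triangles pointing down minus-strand cytosines, and black bars are medians of groups of at least 3. The control groups of the 7 positions with the most cytosines lie near 80% to 88%, whereas in Dnmt1 KO these spread from about 17% at position 198, minus strand, to 53% at position 156, plus strand.

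CpG 198 lost the most. Its 67 plus-strand cytosines had 80.7% ± 1.46 in control (SD, n = 9) and 25.3% ± 0.483 in Dnmt1 KO days 6 to 11 (SD, n = 5), and its 31 minus-strand cytosines 80.1% ± 1.21 and 17.2% ± 0.761. The plus-strand level was 73.5% and 74.1% in the 2 Dnmt1 KO libraries of day 1, 31.9% and 34.7% at day 3, 25.7% at day 6, 24.7% and 25.3% at day 9, and 24.97% and 25.8% at day 11. Every Dnmt1 KO library of days 6 to 11 was below every library of the same days at each of the other 6 frequent unit positions, on the same strand.

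Among the 7 frequent positions, CpG 156 kept the most on its plus strand. There the level was 82.4% ± 0.865 in control and 53.3% ± 1.09 in Dnmt1 KO days 6 to 11, and on the minus strand 82.8% ± 0.869 and 33.5% ± 2.04. The plus strand had 79.2% and 79.5% in Dnmt1 KO at day 1, 58.0% and 59.2% at day 3, 54.5% at day 6, 53.4% and 53.7% at day 9, and 51.6% and 53.1% at day 11. Of the 5 cytosines with the highest pooled level in Dnmt1 KO days 6 to 11, 4 were at this place, between 56.4% and 59.9%. The other was at position 214, chr9:3017793, with 57.0%. The lone cytosine of A138G, at position 137 of the plus strand and with 639 calls in all, had 75.7% ± 4.86 in control (SD, n = 9) and 52.7% ± 7.04 in Dnmt1 KO days 6 to 11 (SD, n = 5), a range of 42.3% to 62.2% that spans that of CpG 156.

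Between these extremes the plus strands of CpGs 98, 110, 138 and 214 settled at 48.1% ± 0.828, 47.1% ± 0.801, 46.7% ± 0.905 and 47.8% ± 0.984 (SD, n = 5), and their ranges over libraries overlapped. Their minus strands averaged 31.6% ± 1.59, 36.8% ± 1.43, 35.9% ± 1.30 and 37.4% ± 1.23, and this spread includes a fall over the days. The minus strand of CpG 98 had 33.7% at day 6, 32.1% and 32.2% at day 9, and 30.2% and 29.8% at day 11. At CpG 214 the minus-strand values of days 9 and 11 overlapped. CpG 229 had 36.5% ± 0.712 on the plus and 36.0% ± 0.791 on the minus strand, from control levels of 87.7% ± 1.09 and 85.2% ± 1.19 (SD, n = 9). At CpG 50, with 3 plus-strand and 1 minus-strand cytosines, the levels were 45.0% ± 2.48 and 28.1% ± 6.63.

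**Figure D3:**
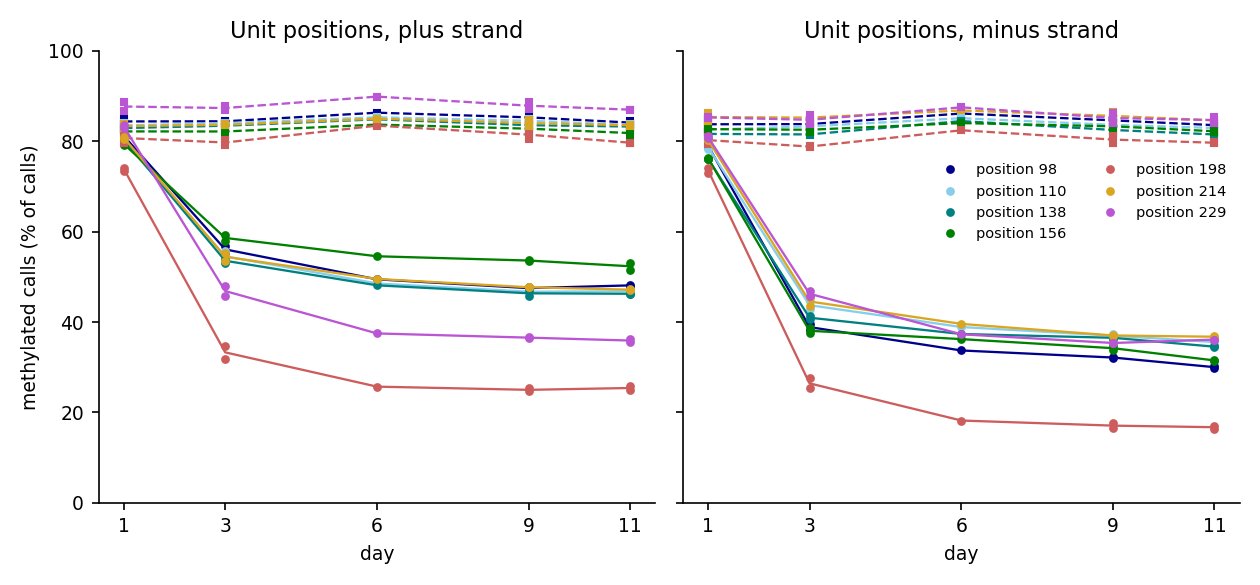
Methylated calls as percent of calls by day at the 7 unit positions with the most cytosines, on the plus strand (left) and the minus strand (right), with calls summed over copies. Squares with broken lines are control libraries, circles with full lines Dnmt1 KO libraries, and lines join means. At day 11 the Dnmt1 KO plus strands reached from 24.97% and 25.8% at position 198 to 51.6% and 53.1% at position 156, while the control lines stayed together.

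The 5 cytosines with the most calls in their lowest library showed the same order within a few copies. The deepest, chr9:3024472, at position 229 of the plus strand in an exon of Gm10718, had 2964 to 4097 calls per library. Its control levels were 84.8% to 88.9%, and its Dnmt1 KO levels 82.5% and 82.8% at day 1, 46.1% and 46.4% at day 3, 37.2% at day 6, 34.9% and 36.6% at day 9, and 33.9% and 35.2% at day 11. It lies next to the minus-strand cytosine of the same CpG, chr9:3024473, which was at 36.8% and 37.1% at day 11. A short way upstream in the same copy, chr9:3024457 at position 214 had 45.6% and 46.5% at day 11 and chr9:3024441 at position 198 had 25.4% in either library. All 3 plus-strand cytosines had over 2200 calls in each library, and within each day from day 3 on their levels in Dnmt1 KO did not overlap. The fifth, chr9:3024165 at position 156 of a copy upstream, had 52.4% and 54.9% at day 11.

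Plus and minus strands were close in control and parted after the deletion. At the 186 CpGs with both strands measured, the plus strand had 83.5% ± 0.833 and the minus strand 82.5% ± 0.960 in control (SD, n = 9), against 43.1% ± 0.700 and 32.5% ± 1.25 in Dnmt1 KO days 6 to 11 (SD, n = 5). Plus minus minus was 0.711 to 1.26 points in the 9 control libraries. In Dnmt1 KO it was 1.90 and 2.68 points at day 1, 10.99 and 11.3 at day 3, 9.94 at day 6, 10.03 and 10.1 at day 9, and 11.17 and 11.5 at day 11. The genotypes did not overlap at any day, and the mean difference of 8.00 points had p = 0.00077 in the two-sided exact permutation test, the smallest possible (adjusted p = 0.00103). Of the 186 CpGs, 178 had the higher level on the plus strand in pooled Dnmt1 KO days 6 to 11, with a median gap of 12.0 points and quartiles of 7.32 and 17.2. In pooled control 92 did, with a median gap of -0.168.

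**Figure D4:**
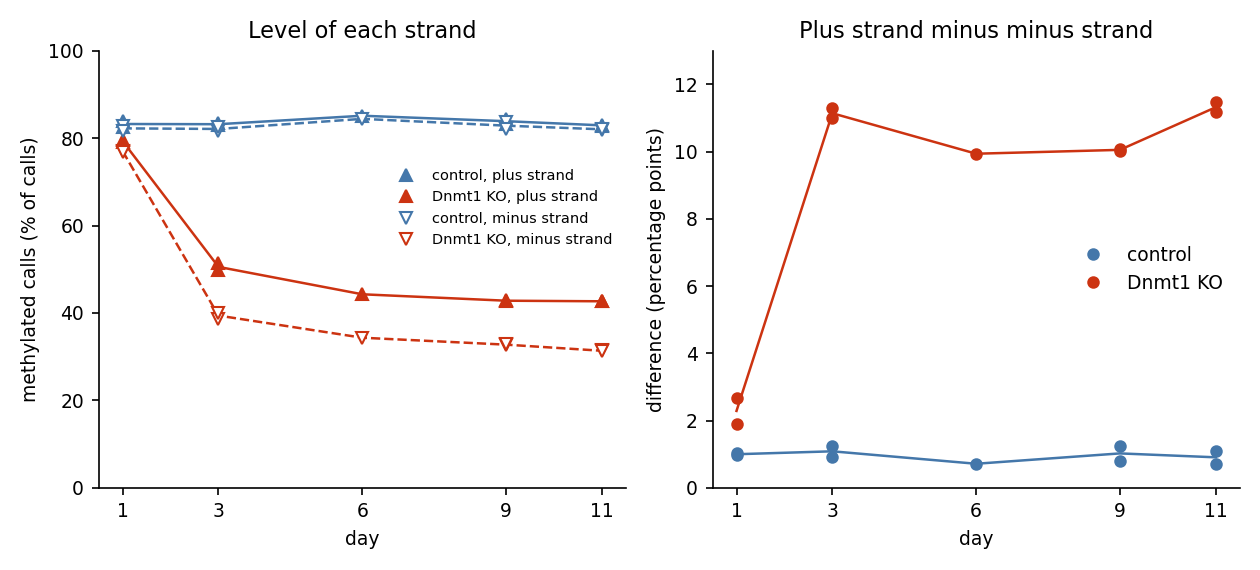
Left, methylated calls as percent of calls by day for each library on the plus strand (filled triangles, full lines) and the minus strand (open triangles, broken lines) of the 186 CpGs measured on both, for control (blue) and Dnmt1 KO (red). Right, plus minus minus in percentage points for the same libraries. Control libraries stay between 0.711 and 1.26 points, and Dnmt1 KO libraries rise from 1.90 and 2.68 points at day 1 to 11.17 and 11.5 at day 11.

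The strand gap was present at most but not all CpGs of the unit. In Dnmt1 KO days 6 to 11 it averaged 19.8 points at CpG 156 (18.3 to 21.4 over the 5 libraries), 16.5 at CpG 98 (15.1 to 18.4), 10.8 at CpG 138 (9.62 to 11.8), 10.4 at CpG 214 (9.94 to 10.9), 10.3 at CpG 110 (9.35 to 11.7) and 8.14 at CpG 198 (7.50 to 8.81). At CpG 229 it was 0.425 points, with a range from -0.626 to 1.30 that included 0. In control the mean gap at these 7 CpGs lay between -1.59 and 2.50 points. Reads of the plus and the minus strand at a CpG can come from different copies of the repeat, so a gap does not give the share of DNA molecules methylated on a single strand.

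Where the assembled repeat lay in inverted orientation, the gap kept its direction at most CpGs when counted on the strand of the repeat unit. A read keeps its unit strand wherever it is aligned, and its source array is unknown. The comparison therefore cannot tell the strand of the unit apart from that of the chromosome. On chromosome 2, between positions 98502421 and 98507483, 70 deep cytosines resembled the unit (at most 20 edits in 81 bases), 53 of them inverted. In these 53, counted on the strand of the unit, the gap in Dnmt1 KO days 6 to 11 was 21.4 points at CpG 156 (20.03 to 22.9 over the 5 libraries), 16.6 at CpG 98 (15.1 to 18.4), 7.49 at CpG 198 (6.67 to 7.98) and -2.09 at CpG 229 (-2.38 to -1.86). The control gaps at these CpGs were 0.752, 0.345, -1.85 and -2.51 points. The Dnmt1 KO levels of days 6 to 11 there were, for example, 55.4% ± 0.838 and 34.1% ± 1.88 on the strands of CpG 156, and 28.2% ± 0.559 and 20.7% ± 0.767 on those of CpG 198 (SD, n = 5). A few deep cytosines resembled the unit on chromosome 12 and at another place on chromosome 9, with only 1 or 2 per position and strand, and their gaps differed more from those of the stretch. On chromosome 12 the gap was 4.49 points at CpG 110 (2.42 to 6.57), 5.22 at CpG 229 (2.16 to 9.81) and 29.9 at CpG 156 (15.6 to 38.9). In control the strands of CpGs 98, 110 and 138 there already differed by -10.9, -13.5 and -12.3 points, and those of CpGs 229 and 156 by 5.04 and 9.34 points. At the other place on chromosome 9 the gap at CpG 156 was 8.66 points, with a range from -11.5 to 23.5 that included 0. At CpGs 98, 110, 138, 198 and 214 there it was 13.6, 11.9, 12.2, 6.57 and 6.18 points, with every library above 0. The control gaps at these CpGs were 2.54, 4.20, 6.13, 0.214 and -3.14 points, and -9.79 at CpG 156. At CpGs 110 and 138 every control library was also above 0. The reads at all these places come from the same libraries and perhaps from the same arrays, so they serve as further alignment targets and not as independent DNA.

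Cytosines with the same flanking bases elsewhere on the autosomes also differed in level, in an order that was similar in part. The 2 bases on either side of the CpG, read on the strand of the cytosine, were CTCGCC on the plus and GGCGAG on the minus strand of CpGs 98 and 156, and CACGTT and AACGTG at CpG 198. Over all autosomal cytosines outside the stretch with at most 20 calls, the level in Dnmt1 KO days 6 to 11 was 31.6% ± 1.09 for CTCGCC and 17.5% ± 0.664 for GGCGAG (SD, n = 5), although the 2 strands had 71.8% ± 3.17 and 70.3% ± 3.09 in control (SD, n = 9). For CACGTT and AACGTG it was 20.7% ± 0.914 and 13.3% ± 0.304. CACGTC and GACGTG, the flanks of CpG 110, had 32.1% ± 0.815 and 16.7% ± 0.614. The flanks of CpG 229, GTCGTC and GACGAC, lay nearer to each other, at 22.9% ± 0.665 and 19.7% ± 0.560. At CpG 214 the flanks TTCGTC and GACGAA had 28.3% ± 0.625 and 21.0% ± 0.643. Those of CpG 138, TCCGTG and CACGGA, were the closest, at 23.6% ± 0.585 and 22.1% ± 0.659, whereas the strands of that CpG lay 10.8 points apart in the stretch.

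Across the 14 strands of the 7 frequent CpGs, the level in the stretch and the level of the same flanks elsewhere had a Pearson r of 0.864 and a Spearman rho of 0.817 in Dnmt1 KO days 6 to 11. The points share their libraries, and CpGs 98 and 156 share flanks, so the correlation is a description. Each of the 14 levels was higher in the stretch than elsewhere, unlike that of the 4 cytosines of T38C, which also have the flanks CTCGCC and were at 0.665% against 31.6% elsewhere. On the plus strand CpGs 98 and 156 had CTCGCC at 55 of 57 and 37 of 41 cytosines, and their levels over all these cytosines were 47.2% to 49.4% and 51.6% to 54.5% in the 5 libraries, with no overlap. All autosomal flanks together had 23.7% in these libraries, and the 256 possible flanks ranged from 11.02% to 44.0%.

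**Figure D5:**
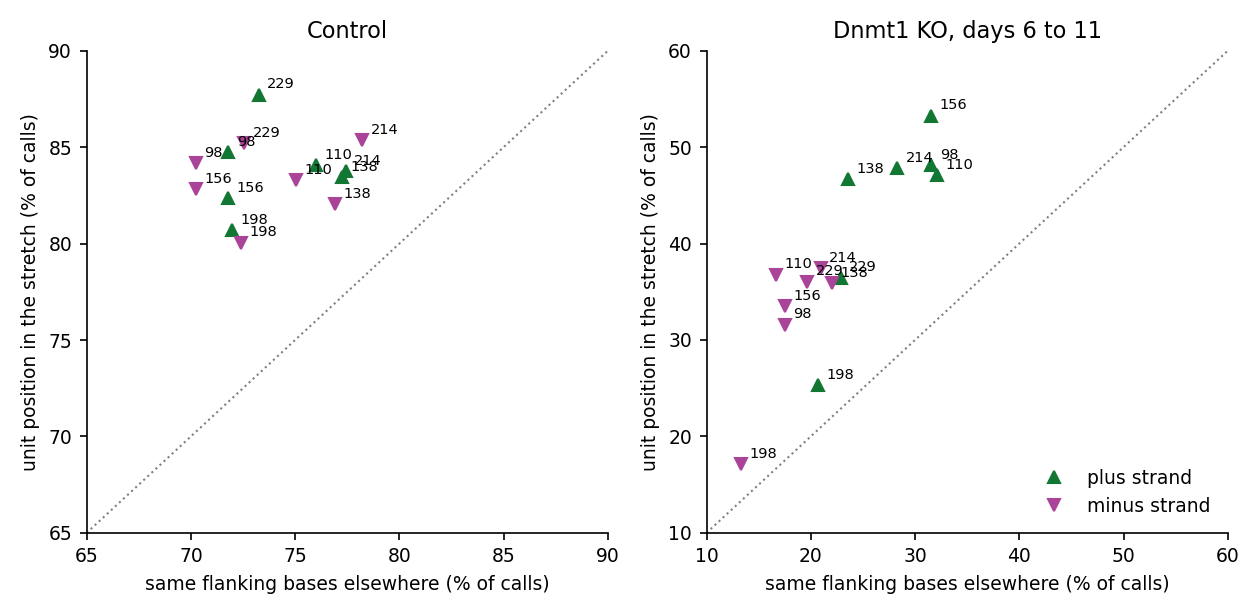
Level of each strand of the 7 frequent unit CpGs in the stretch (vertical axis, percent of calls) against the level of autosomal cytosines elsewhere with the same 2 bases on either side (horizontal axis, percent of calls), in control (left) and Dnmt1 KO days 6 to 11 (right), as means over libraries. Green triangles pointing up are plus and purple triangles pointing down minus strands, numbers are unit positions, the dotted line marks equal levels, and the axes do not start at 0. In Dnmt1 KO the points run from position 198, minus strand (13.3% elsewhere, 17.2% in the stretch) to position 156, plus strand (31.6% and 53.3%), and all lie above the line.

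Pooled over unit positions and strands, other features of a cytosine went with its level only weakly. Relations within a single position and strand are not given here. Over the 533 cytosines with at least 25% in control, Spearman's rho with the pooled level in Dnmt1 KO days 6 to 11 was 0.327 for the control level, 0.163 for the number of edits that separated the surroundings from the unit, 0.0613 for the number of calls, 0.00989 for the position along the stretch and 0.00866 for the number of CpGs nearby. When the stretch was divided into 8 parts of equal length, with 37 to 129 cytosines each, their levels were 80.9% to 83.5% in control and 36.0% to 40.3% in Dnmt1 KO days 6 to 11. The lowest, at chr9:3019144-3023921, had 36.0% ± 0.886 (SD, n = 5).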

How the data were processed

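The data are whole-genome bisulfite libraries of mouse ESCs, 18 in number, grouped by the genotype, day and replicate number of their titles. According to the methods, the authors used Trim Galore for trimming and Bismark for paired-end alignment to NCBIM37, and then removed duplicates and extracted CpG calls. The submitters' processing notes name Bismark version 0.12.3, the methods a later version. The deposited tables hold counts of methylated and of unmethylated calls per cytosine, with no normalization, and a deposited percent that equals the methylated share of these counts. Only the counts were used. Read alignment in repeats keeps the best-placed reads, and removal of duplicates limits the depth at any position, so calls per cytosine do not measure copy number.

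Members and lists were chosen with earlier results of these data known. The 540 cytosines were set by depth. Their unit positions came from aligning 40 bases on either side to the unit (edlib 1.3.9.post1), which places cytosines on the unit strand. Levels are percent methylated of summed calls. Cytosines named singly were the 5 highest and 5 lowest in pooled Dnmt1 KO days 6 to 11, which are described without a test of that choice, the 5 with the most calls in their lowest library, and, summed over copies, unit CpGs with at least 3 cytosines. Other cytosines, such as those at positions 78 and 226 and the deepest called at day 1, were named after their values were seen.

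Library values were tested by exact two-sided permutation of genotype within days (2592 arrangements, scipy 1.17.1), with Benjamini-Hochberg adjustment over 4 tests. Cytosines were tested in R 4.3.3 by a quasi-binomial model with a level per genotype and day over all 727 cytosines with at least 20 calls in every library, with dispersion moderated by limma 3.58.1. The median dispersion was 1.08, with 8 residual and 13.0 prior degrees of freedom, and the lone day 6 libraries were assumed to vary like the others. The model was tested on simulated data. Between replicates the chi-square per cytosine was 0.972 to 1.33 for methylation and 1.13 to 3.28 for depth. Errors that rest on counts cover counting error only, since calls of the same read or amplified molecule are not independent. The sources call the replicates biological without naming separate cultures.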

Additional observations from a re-analysis of the deposited data

Results flagged for a closer look

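The share of nuclear calls that fell in the stretch differed in direction between days. At day 3 both Dnmt1 KO libraries (2.04% and 2.06%) were above both control libraries (1.66% and 1.73%), a difference of 0.355 percentage points. At day 6 the Dnmt1 KO library (1.45%) was below the control library (1.63%), a difference of -0.175 points. The difference between these days was not tested, and day 6 had 1 library per genotype.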

How the results depend on the processing

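Of 375 recomputed values under alternatives, 363 kept their direction and their side of the threshold or, for counts, lay within 1.5 times the reported count, and none reversed. With a minimum of 50 calls in every library 337 cytosines remained, and the calls were 332 over the days, 331 at day 3, 330 at day 6, 333 at day 9, 332 at day 11 and 331 from day 1 to 3, because fewer cytosines were tested. Without a minimum difference the calls rose to 99 at day 1 and to 91 from day 3 to 6. With limma on log2 ratios (pseudocount 1) the step from day 3 to 6 gave 11. The cause of the last was not tested.

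Leaving out each library in turn, the stretch level difference ranged from -34.9 to -32.4 points, the difference from the rest from 4.27 to 5.67 points, the share of calls from 0.0195 to 0.196 points and the strand gap from 7.70 to 8.08 points. Leaving out a day 6 library drops that day from the mean. Calls at day 1 ranged from 10 (without Dnmt1 KO day 1 replicate 1) to 26, from day 3 to 6 from 13 (without Dnmt1 KO day 3 replicate 2) to 48, and in control from day 9 to 11 from 0 to 3 (without control day 9 replicate 2).

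Replicate numbers were not used as pairs in the main tests. Deviations of same-numbered libraries correlated between genotypes at -0.0938 to 0.0699 across cytosines. Replicates differed by little more than counting error at single cytosines, so this correlation cannot decide whether the libraries were paired. With a replicate block the exact permutation p was 0.00391 for the level, the difference from the rest and the strand gap (the smallest its 512 arrangements allow). For the share it was 0.297. Added after the data were seen, the log2 ratio of stretch to rest was 0.39 higher in Dnmt1 KO, and 94 CpGs with similar depth on the 2 strands gave a strand gap of 8.55 points.

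Depth limits single cytosines more than sums. Counting error of a typical cytosine was about 2.28 points in the pooled Dnmt1 KO libraries of days 6 to 11.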
